A study of Arabidopsis thaliana with 97 samples.

Results

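The genes described here are the ZAT and AZF genes of Arabidopsis thaliana, which code for C2H2 zinc finger transcription factors of the class known as C1-2i. The 10 members were chosen by name and locus, with no measured value in the rule: ZAT5 (AT2G28200), ZAT6 (AT5G04340), ZAT7 (AT3G46090), ZAT8 (AT3G46080), ZAT10 (AT1G27730), ZAT11 (AT2G37430), ZAT12 (AT5G59820), ZAT18 (AT3G53600), AZF1 (AT5G67450) and AZF2 (AT3G19580). They are 10 of the 27878 loci with sense tags in the files, and all 10 passed the filter on low counts. Together they held 168906 sense tags, 0.131% of all tags.

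Plants of ein2-5, jar1-1, npr1-1 and the ecotype they were set against, Col-0, gave leaf discs at an age of 5 weeks. EIN2 carries the ethylene signal from the endoplasmic reticulum membrane to the nucleus, JAR1 joins jasmonate to isoleucine and so makes the active hormone, and NPR1 is a coactivator of salicylic acid responses, so each mutant weakens 1 hormone pathway, and each was represented by 1 allele. Discs of all genotypes floated on water for about 20 h and were then given 100 nM flg22, the peptide of bacterial flagellin that the receptor kinase FLS2 binds, for 8, 15, 30, 45, 60, 120 or 180 min, or water for 8 min. With 3 libraries in each of 32 groups there were 96 libraries. The water control was collected at 8 min only, so at later times the effect of flg22 and of time in the dish cannot be told apart.

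Depth ranged between 388691 and 2415393 tags a library (median 1376884.5). Levels are given in TPM, the usual scale of tags relative to the library total, here after scaling with TMM factors; each transcript gives 1 tag near its 3′ end, so TPM needs no division by length. The 6 leaf markers summed to between 2585 and 22327 TPM, the 3 root markers to at most 1.08 TPM and the 3 seed markers to at most 0.804 TPM in any library. EIN2 itself stood at 7.15, 6.31 and 2.34 TPM in ein2-5 water libraries, against 23.3, 24.5 and 11.3 TPM in Col-0 water libraries. The jar1-1 and npr1-1 alleles are point mutations, which tag counts do not test. Each genotype and replicate number filled 1 sequencing lane, so a lane and a genotype cannot be told apart across genotypes. By the study's methods, Col-0 and npr1-1 were sequenced on the same flow cell, and jar1-1 and ein2-5 on other flow cells in separate runs, so the differences of ein2-5 and of jar1-1 from Col-0 and the sequencing run cannot be told apart. In leaf discs, fewer cells of a type and less RNA per cell cannot be told apart either.

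Proteins of this class carry a pair of zinc fingers with a plant-specific motif in each, and a short repressor motif (the EAR motif) near the end of the protein, through which such factors recruit corepressors of the TOPLESS family or SAP18. Their genes are known for fast and transient induction by wounding, salt, cold, high light and elicitors. ZAT10 (also called STZ) and ZAT6 are phosphorylated by mitogen-activated protein kinases, ZAT12 (also called RHL41) is known from responses to high light and hydrogen peroxide, and AZF1 and AZF2 repress genes under salt and abscisic acid treatment.

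The bases before the genes are shown because most members rose within minutes. The 250 bases upstream of the annotated start were read from the TAIR10.1 genome with its RefSeq annotation by locus name; the tag files name TAIR10 and hold no coordinates. In 9 of the 10 members this window held the core of the W-box, TTGAC (read as GTCAA on the other strand), the letters that WRKY factors bind, against 44.9% of 27443 windows of the same length before protein-coding genes. At least 2 copies were present in 5 members and in 14.1% of all windows. The GCC-box, which reads GCCGCC and is bound by ethylene response factors, was in 2 members, ZAT6 and ZAT10, and in 1.87% of windows. It was searched on both strands, as GGCGGC on the other. No member held the G-box CACGTG (6.49% of windows) or CGCGTT, a core of the rapid stress response element (AACGCG on the other strand; 2.59% of windows). In the windows below, capitals mark W-box cores and GCC-boxes on either strand, and the last base is the one before the gene start.
ZAT12, chr5:24102564-24102813, plus strand: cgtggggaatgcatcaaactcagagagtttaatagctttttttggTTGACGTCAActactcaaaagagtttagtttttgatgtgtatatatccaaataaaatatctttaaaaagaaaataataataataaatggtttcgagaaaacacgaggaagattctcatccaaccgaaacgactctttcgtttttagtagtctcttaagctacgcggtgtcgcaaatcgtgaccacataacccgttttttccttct
ZAT11, chr2:15706035-15706284, plus strand: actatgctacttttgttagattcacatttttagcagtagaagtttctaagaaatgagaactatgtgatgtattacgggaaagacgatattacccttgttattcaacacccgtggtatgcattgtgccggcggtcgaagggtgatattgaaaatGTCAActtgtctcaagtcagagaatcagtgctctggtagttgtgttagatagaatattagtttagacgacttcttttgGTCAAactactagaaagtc
ZAT10, chr1:9649324-9649573, minus strand: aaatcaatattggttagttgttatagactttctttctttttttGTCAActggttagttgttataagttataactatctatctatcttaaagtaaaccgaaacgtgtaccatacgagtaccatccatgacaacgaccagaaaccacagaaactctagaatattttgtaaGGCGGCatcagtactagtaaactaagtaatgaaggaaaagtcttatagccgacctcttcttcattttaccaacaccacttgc
ZAT7, chr3:16926884-16927133, minus strand: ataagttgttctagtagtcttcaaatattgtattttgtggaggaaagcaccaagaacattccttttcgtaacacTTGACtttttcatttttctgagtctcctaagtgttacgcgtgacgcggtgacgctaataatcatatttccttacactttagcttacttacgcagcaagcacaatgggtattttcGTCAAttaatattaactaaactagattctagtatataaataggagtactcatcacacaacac
ZAT8, chr3:16923300-16923549, minus strand: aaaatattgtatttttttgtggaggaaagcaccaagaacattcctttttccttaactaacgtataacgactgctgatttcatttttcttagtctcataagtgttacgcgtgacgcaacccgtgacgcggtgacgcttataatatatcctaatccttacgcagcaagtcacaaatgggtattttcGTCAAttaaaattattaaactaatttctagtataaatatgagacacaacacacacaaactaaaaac
ZAT5, chr2:12023690-12023939, plus strand: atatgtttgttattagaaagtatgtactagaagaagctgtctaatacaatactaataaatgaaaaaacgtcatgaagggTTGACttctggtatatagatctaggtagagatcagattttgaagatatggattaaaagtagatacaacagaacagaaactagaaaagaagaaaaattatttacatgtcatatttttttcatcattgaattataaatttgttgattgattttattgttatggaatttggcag

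In ZAT12 the 2 cores stood end to end on opposite strands, beginning 205 and 200 bases before the start, without overlap. ZAT11 held cores 97 and 19 bases before the start, and ZAT10 a core at 207 and a GCC-box at 82 bases. ZAT7 and ZAT8 lie close together on chromosome 3, with AT3G46086 between them. Of the paired bases of their windows, 198 of 212 were identical (93.4%), against 150 of 213 (70.4%) for ZAT10 and ZAT6. ZAT7 holds cores 176 and 62 bases before the start, and ZAT8 a core at 66. Their gene spans were alike too (690 of 752 paired bases), and tags that fit several loci had been divided equally among them: ZAT7 and ZAT8 held values that are not whole numbers in 31 libraries each and AZF1 in 38, so the split of tags between ZAT7 and ZAT8 is uncertain. ZAT5, the member that fell, also holds a core, at 171 bases. A match of letters is a description of the window and not a binding site.

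**Figure D1:**
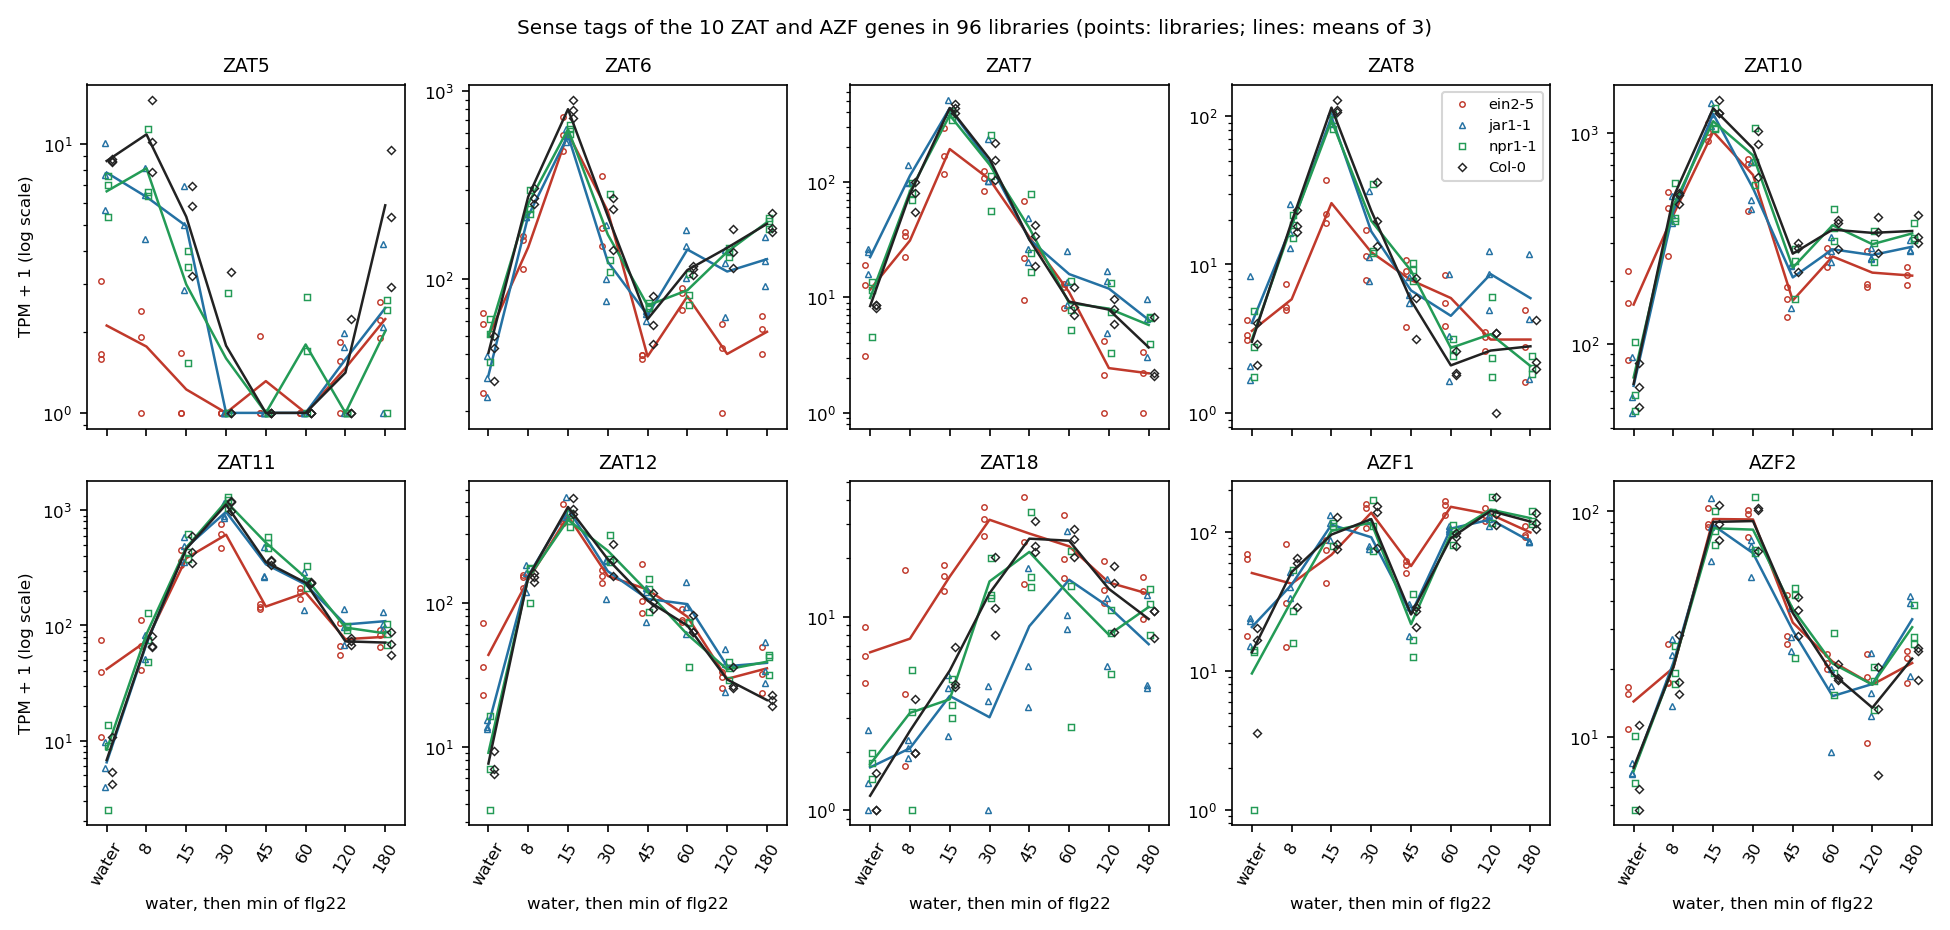
Levels of the 10 genes in all 96 libraries (TPM + 1, log scale) against water and the 7 times of flg22, for ein2-5, jar1-1, npr1-1 and Col-0; points are libraries and lines the means of 3. In Col-0, 5 genes were highest at 15 min, ZAT11 and AZF2 at 30 min, ZAT18 at 45 min and AZF1 at 120 min, while ZAT5 had no tag at 45 and 60 min.

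The first question was when each member responded to flg22 in Col-0. Of the 10 genes, 8 were already higher at 8 min than in water, a time at which 1.2% of the 16816 features tested were called higher (adjusted p under 0.01, edgeR quasi-likelihood test). All but ZAT5 and ZAT18 were called at that time, and 5 members reached their highest level at 15 min. Without replicate 1 of Col-0, 5 of the 8 calls were left at 8 min, and leaving out either other replicate left 6.

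ZAT12 stood at 5.43, 8.37 and 6.03 TPM in Col-0 water libraries, at 160, 149 and 137 TPM after 8 min of flg22 and at 408, 527 and 446 TPM after 15 min. No flg22 library overlapped with the water libraries at any time. On the fitted scale the change against water was 4.48 ± 0.40 (log2, SE; adjusted p = 2.05e-13) at 8 min and 6.11 ± 0.42 at 15 min. By 180 min ZAT12 was back to 20.2, 21.7 and 18.1 TPM, still above water (1.59 ± 0.42, adjusted p = 0.00136), though not past the threshold with any 1 of the 3 replicates left out (adjusted p between 0.0102 and 0.0211).

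ZAT10 was the most abundant member. Its water libraries held 61.9, 49.6 and 80.6 TPM, the 8 min libraries 457, 520 and 508 TPM and the 15 min libraries 1243, 1423 and 1241 TPM, a ratio of means of 20.3 at 15 min. It did not return to the water level: the 180 min libraries held 320, 408 and 299 TPM (change 2.42 ± 0.29, adjusted p = 1.16e-10). ZAT6, a close relative, followed the same first wave with 791, 895 and 718 TPM at 15 min, against 48.8, 27.7 and 42.2 TPM in water.

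ZAT7, known from studies of salt tolerance, and ZAT8 gave short pulses. ZAT7 held 7.60, 7.08 and 7.53 TPM in water, 437, 471 and 394 TPM at 15 min and 11.3, 6.01 and 7.27 TPM at 60 min. ZAT8 held 1.09, 1.93 and 3.01 TPM in water, 105, 127 and 109 TPM at 15 min and 1.61, 0.859 and 0.808 TPM at 60 min. At 60 min both were near or below their water values, and neither was called against water at 60, 120 or 180 min in Col-0.

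ZAT11 is a gene linked to programmed cell death. It stood at 4.34, 3.22 and 9.79 TPM in water, 351, 602 and 435 TPM at 15 min and 1181, 989 and 1195 TPM at 30 min, a ratio of means of 194 at 30 min (fitted change 7.62 ± 0.50, adjusted p = 1.08e-21). At 180 min it held 54.9, 68.2 and 86.8 TPM. AZF2 was slower to fall than the 15 min genes, with 4.88, 10.3 and 3.77 TPM in water, 74.1, 106 and 86.6 TPM at 15 min and 101, 65.8 and 103 TPM at 30 min.

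ZAT18, a gene known from drought tolerance, was the last of the rising members to be called. Its highest group mean also came later than those of the other rising members except AZF1. The water libraries together held a lone tag, those at 45 min 71 tags and those at 60 min 86 tags. The 45 min libraries held 20.5, 30.2 and 22.1 TPM and the 60 min libraries 24.1, 27.5 and 19.4 TPM. The ratio to water at 45 min was 117 (95% interval 20.3 to 4682, counting error only), so its size is poorly known. ZAT18 was called at 30 min and all later times, and at 15 min with the lane as a block (3.79, adjusted p = 0.00972, against 0.0106 without it). It passed the filter on low counts through flg22 groups, so its rises are not independent of that filter.

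AZF1 rose, fell back and rose again. Its libraries held 19.5, 2.58 and 15.8 TPM in water, 154, 75.8 and 138 TPM at 30 min, 28, 25.8 and 19.6 TPM at 45 min, and 177, 134 and 111 TPM at 120 min. The 45 min libraries were above all water libraries by little, and the change at that time missed the threshold (0.94 ± 0.50, adjusted p = 0.119). ZAT6 showed the same trough, with 270, 143 and 235 TPM at 30 min, 56, 80.9 and 44.1 TPM at 45 min and 186, 225 and 177 TPM at 180 min.

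ZAT5 moved the other way. It held 7.60, 7.73 and 7.53 TPM in water, 9.11, 13.5 and 6.83 TPM at 8 min and 2.21, 4.85 and 5.97 TPM at 15 min. At 45 and 60 min none of the 3 libraries held a tag, which with a floor of 3 tags over the group made ZAT5 at least 7.29-fold and at least 9.26-fold lower than in water. It was called lower at 30, 45, 60 and 120 min, and at 180 min the libraries held 1.93, 4.33 and 8.44 TPM. Over all 96 libraries ZAT5 held 291 tags, and 43 libraries held none. It passed the filter on low counts through the groups where it was high, so its falls are not independent of that filter.

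**Figure D2:**
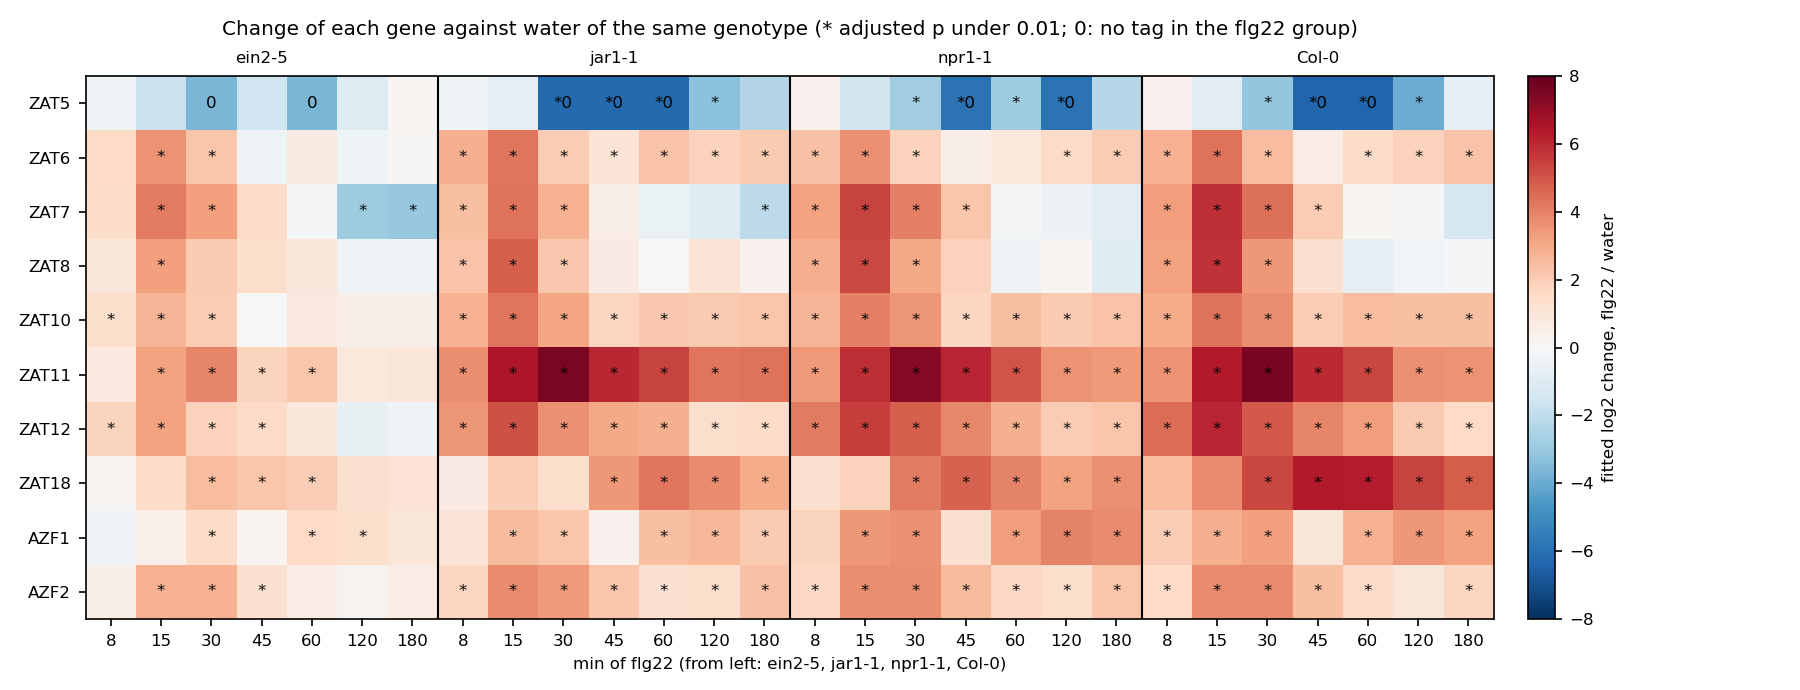
Fitted log2 change of each gene against water of the same genotype (colour) at 7 times of flg22 in ein2-5, jar1-1, npr1-1 and Col-0; an asterisk marks adjusted p under 0.01 and a 0 a flg22 group without a tag, whose fitted value depends on the prior count. ZAT5 is blue in jar1-1, npr1-1 and Col-0 between 30 and 120 min, and the ein2-5 block is paler than the other 3.

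Counted over the members in Col-0, 8 were higher than water after 15 min (8.71% of all features tested), 9 after 30 min (11.1%), 6 after 45 min (15%), 7 after 60 min (16.9%), 6 after 120 min (17%) and 7 after 180 min (16.1%). No member was called lower at 15 min (4.14% of features lower). ZAT5 was the lone member called lower, at 30 min (7.71% of features lower), 45 min (15.3%), 60 min (20.3%) and 120 min (18.2%). The median fitted change of the 10 was 4.34 at 15 min, where that of all features was -0.096, and 2.02 at 180 min, where that of all features was -0.035.

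The steps between neighbouring times show how fast the levels turned. From 8 to 15 min in Col-0, 7 members rose (3.91% of features); ZAT5, ZAT18 and AZF1 did not pass. From 15 to 30 min, ZAT6, ZAT8 and ZAT12 fell (3.3% of features) and ZAT11 was the member that rose (4.21% of features). With the lane as a block ZAT7 was called lower too (adjusted p = 0.00012). From 30 to 45 min, 6 members fell (0.803% of features). These were ZAT6, ZAT7, ZAT10, ZAT11, AZF1 and AZF2, with ZAT7 at -2.37 ± 0.52 (adjusted p = 0.00202) and AZF1 at -2.31 ± 0.46 (adjusted p = 0.000569); with the lane as a block ZAT8 (adjusted p = 0.00262) and ZAT12 (0.00993) passed as well. Fewer step calls were left with a replicate out. Without replicate 1, 2 or 3 of Col-0 the 6 falls after 30 min numbered 1, 3 and 0, and the calls over all steps in Col-0 numbered 11, 8 and 6, against 19 with all replicates. The second rise of AZF1 between 45 and 60 min passed in npr1-1 (2.1 ± 0.46, adjusted p = 0.0048) and jar1-1 (2.08 ± 0.46, adjusted p = 0.00359), and was lost without any 1 replicate of npr1-1 (adjusted p between 0.0134 and 0.101) or of jar1-1 (between 0.0416 and 0.128). In Col-0 it was 1.86 ± 0.46 (adjusted p = 0.0202, and 0.00262 with the lane as a block) and in ein2-5 1.43 ± 0.43 (adjusted p = 0.145).

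Between 30 and 180 min the members parted. In Col-0, 6 were lower at 180 min than at 30 min (12.9% of features): ZAT7, ZAT8, ZAT10, ZAT11, ZAT12 and AZF2, with ZAT7 at -5.74 ± 0.70 and ZAT10 at -1.30 ± 0.27. ZAT6 (-0.14 ± 0.31), AZF1 (-0.05 ± 0.42) and ZAT18 (-0.50 ± 0.61) did not pass. The same 6 passed in npr1-1 (14.5% of features) and in jar1-1 (14.8% of features). Without any 1 replicate of jar1-1, 3 of its 6 calls were left. In ein2-5 the 6 passed as well, with ZAT6 as a further member (-2.15 ± 0.33, adjusted p = 2.53e-07; 7 of 10, 13.2% of features).

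The next question was whether the salicylic acid and jasmonate mutants differed from Col-0. No member was called for npr1-1 or jar1-1 against Col-0 in water, over the 7 flg22 times together or in the interaction of genotype and flg22. Across all features, 0.0357% were called higher and 0.0238% lower for npr1-1 in water, and 0.0119% and 0.0238% for jar1-1. Over the 7 times 0.571% of features were called for npr1-1 and 1.02% for jar1-1, and no feature at all in either interaction. At an unadjusted p under 0.05, no member passed for npr1-1 in these 3 tests, and 2 passed for jar1-1 in water, 2 over the 7 times and none in the interaction. The share of all features at this cut-off was not counted, so these numbers have nothing to be set against.

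The fitted differences show what these tests could leave unseen. In water, npr1-1 differed from Col-0 by between -0.47 ± 0.51 (AZF1) and 0.45 ± 0.49 (ZAT11) on the log2 scale, leaving aside ZAT18 with 4 tags against 1. In jar1-1, ZAT7 stood at 25.3, 14.9 and 23.7 TPM in water, against 7.60, 7.08 and 7.53 TPM in Col-0. All 3 jar1-1 libraries were above all 3 Col-0 libraries, and the difference of 1.51 ± 0.58 had an adjusted p of 0.904. ZAT12 was likewise at 12.6, 14.4 and 12.2 TPM in jar1-1 water libraries, against 5.43, 8.37 and 6.03 TPM in Col-0 (0.98 ± 0.41, adjusted p = 0.92). ZAT18 was the member nearest to a call over the 7 flg22 times in jar1-1 (adjusted p = 0.0894), with 2.64, 3.39 and 0 TPM in jar1-1 at 30 min, against 7.01, 10.1 and 19.4 TPM in Col-0.

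Against their own water libraries, both mutants gave nearly the counts of Col-0. The members called higher in jar1-1 numbered 7 after 8 min (0.868% of features), 8 after 15 min (9.41%), 8 after 30 min (12.1%), 6 after 45 min (16.4%), 7 after 60 min (17.7%), 7 after 120 min (18%) and 7 after 180 min (18.2%). In npr1-1 they numbered 7 (1.18%), 8 (8.59%), 9 (12%), 6 (15.3%), 6 (17.1%), 7 (16.7%) and 7 (17.3%) in that order. At 8 min the calls numbered 4, 5 and 5 without replicate 1, 2 or 3 of jar1-1, and 6, 5 and 4 without replicate 1, 2 or 3 of npr1-1. ZAT5 was called lower in jar1-1 after 30 min (9.03% of features lower), 45 min (15.2%), 60 min (22.7%) and 120 min (20.5%), and in npr1-1 after 30 min (9.03%), 45 min (14.7%), 60 min (21%) and 120 min (19.9%). No member was called lower at 15 min in jar1-1 (5.29%) or npr1-1 (5.5%), or at 8 min in npr1-1 (0.0178%). In jar1-1 its libraries at 30, 45 and 60 min held no tag. ZAT7 was lower than water at 180 min in jar1-1 (8.66, 5.45 and 2.04 TPM; -2.07 ± 0.66, adjusted p = 0.00667), where 20.2% of features were called lower. That call was lost without any 1 replicate of jar1-1 (adjusted p between 0.0132 and 0.139), and ZAT5 was called lower there with the lane as a block (-2.37, adjusted p = 0.00634).

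**Figure D3:**
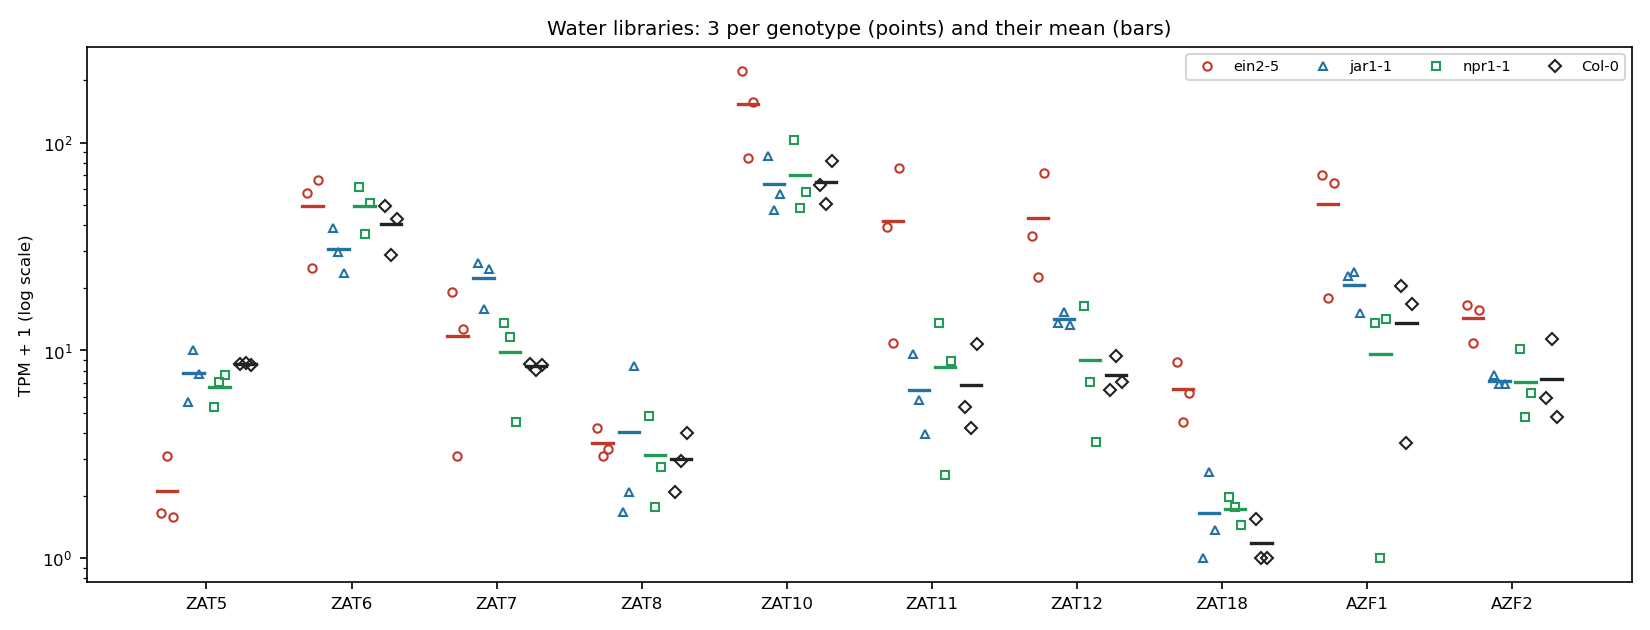
Water libraries of the 10 genes (TPM + 1, log scale), 3 points and a mean bar for ein2-5, jar1-1, npr1-1 and Col-0. For ZAT12 and ZAT18 the 3 ein2-5 points lie above the 3 Col-0 points, for ZAT5 below them; for AZF1 the lowest ein2-5 library lies inside the Col-0 range.

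The ethylene mutant differed before any flg22 was given. In water, 5 members were higher in ein2-5 than in Col-0, where 5.14% of all features were called higher, and ZAT5 was lower, where 1.5% were called lower. These shares are 865 features higher and 252 lower, and with total tags as scaling they numbered 495 and 322. The higher members were ZAT10, ZAT11, ZAT12, ZAT18 and AZF1.

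ZAT12 held 34.5, 21.7 and 70.8 TPM in ein2-5 water libraries, against 5.43, 8.37 and 6.03 TPM in Col-0, a difference of 2.67 ± 0.39 (log2, SE; adjusted p = 3.96e-07). ZAT11 held 38.4, 9.82 and 74.3 TPM in ein2-5, against 4.34, 3.22 and 9.79 TPM in Col-0 (2.85 ± 0.45, adjusted p = 2.18e-06). Here the lowest ein2-5 library, replicate 2, was level with the highest Col-0 library. ZAT10 held 220, 83.5 and 156 TPM in ein2-5, against 61.9, 49.6 and 80.6 TPM in Col-0 (1.26 ± 0.28, adjusted p = 0.000697).

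ZAT18 held 7.80, 3.51 and 5.27 TPM in ein2-5, against 0.543, 0 and 0 TPM in Col-0. That is 26 tags against 1, a ratio of 26.3 with a 95% counting interval of 4.32 to 1078. ZAT18 passed the filter on low counts through flg22 groups, so this difference is not independent of that filter either. AZF1 held 68.9, 16.8 and 63.2 TPM in ein2-5, against 19.5, 2.58 and 15.8 TPM in Col-0 (1.96 ± 0.47, adjusted p = 0.00191). The lowest ein2-5 library, at 16.8 TPM, lay inside the Col-0 range, so the groups overlapped.

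ZAT5 held 0.650, 2.1 and 0.585 TPM in ein2-5, against 7.60, 7.73 and 7.53 TPM in Col-0 (-2.72 ± 0.75). Its adjusted p of 0.00953 lay just inside the threshold. Its group means in ein2-5 reached at most 1.23 TPM, so it passed the filter on low counts through groups of other genotypes. Its lower level in ein2-5 is therefore not independent of that filter. The remaining members were not called: AZF2 differed by 1.07 ± 0.39 (adjusted p = 0.0665), and ZAT6, ZAT7 and ZAT8 by between 0.30 and 0.54. Summed over the 10 genes the ein2-5 water libraries held 464, 175 and 465 TPM and the Col-0 water libraries 162, 118 and 176 TPM, so replicate 2 of ein2-5 stood nearer to Col-0 than the other two. Without replicate 1, 2 or 3 of ein2-5 the calls in water numbered 2, 6 and 3, and without replicate 1, 2 or 3 of Col-0 they numbered 4, 2 and 3. ZAT11 and ZAT12 were called each time. Over all features 767, 1115 and 858 were called without those of ein2-5. Without those of Col-0 they numbered 822, 515 and 769, against 1117 with all replicates. ZAT5 lost its call without any of these libraries except replicate 2 of ein2-5 (adjusted p between 0.0146 and 0.0656), and with only the 6 water libraries in the fit no member was called.

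**Figure D4:**
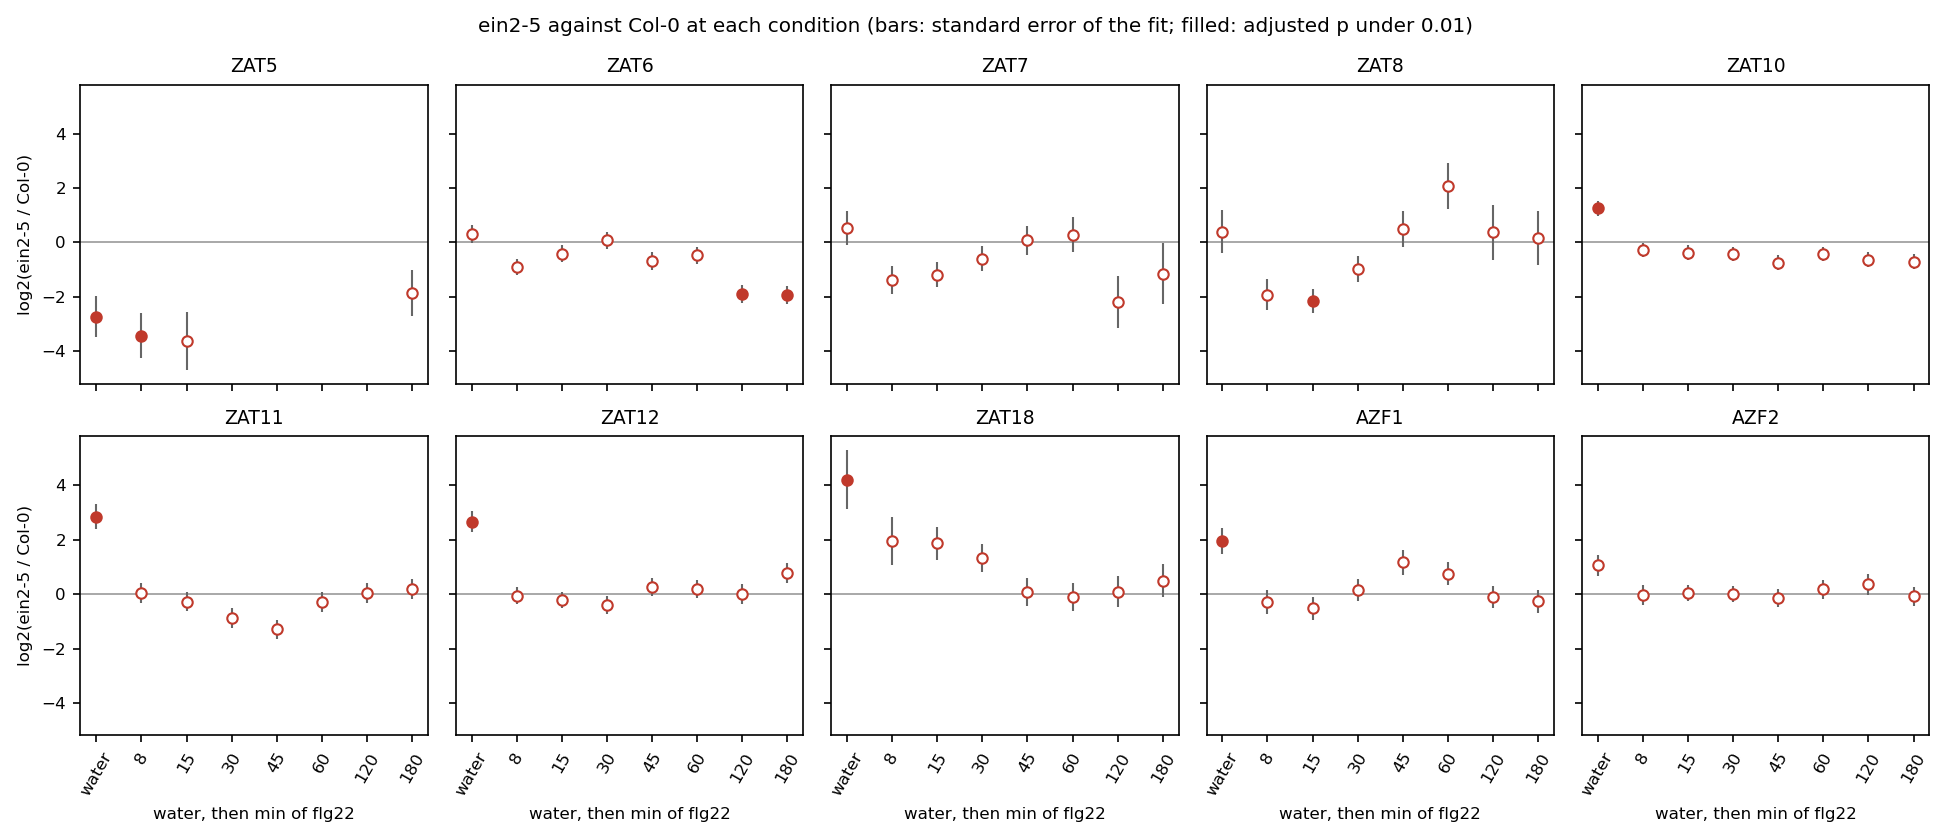
Fitted log2 ratio of ein2-5 to Col-0 for each gene in water and at 7 times of flg22; bars are standard errors, filled points have adjusted p under 0.01, and points where both groups held 3 tags or fewer are left out. ZAT10, ZAT11 and ZAT12 lie between 1.26 and 2.85 in water and between -1.29 and 0.77 with flg22, while ZAT6 is lowest at 120 and 180 min (-1.89 and -1.93).

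Over the 7 flg22 times together, 4 members were called between ein2-5 and Col-0, where 16.5% of features were: ZAT5, ZAT6, ZAT8 and ZAT10. Of these, ZAT5 and ZAT10 had also been called in water. ZAT6 and ZAT8 were called with each library left out in turn, and the member calls then numbered 5, 2 and 3 without replicate 1, 2 or 3 of ein2-5 and 3, 3 and 4 without replicate 1, 2 or 3 of Col-0. Over all features 2506, 2185 and 2551 were called without those of ein2-5. Without those of Col-0 they numbered 2257, 1658 and 1921, against 2771 with all replicates. That test took the libraries of a lane as independent, so the share of 16.5% may be too high. In limma, where libraries that shared a lane were allowed to deviate together, 1501 features were called. The replicate number as a block across genotypes moved the count the other way, to 3412. By the lanes these numbers do not pair libraries across genotypes, so that block stands for no shared lane. The interaction, which asks whether the change from water differed between the genotypes, was called for 4 members, where 1.34% of features were: ZAT6 (adjusted p = 0.00134), ZAT10 (0.00488), ZAT11 (6.97e-05) and ZAT12 (0.000776). ZAT8 was just outside (0.012). With the lane as a block ZAT8 (0.000858) and AZF1 (0.00662) were called too. Without replicate 1, 2 or 3 of Col-0 the interaction calls numbered 0, 0 and 1, and without replicate 1, 2 or 3 of ein2-5 they numbered 2, 4 and 0. Scaling by total tags left 2. The calls over all features moved too, from 226 to 592 with the lane as a block and to 126 with total tags. They numbered 73, 34 and 81 without replicate 1, 2 or 3 of Col-0. Without those of ein2-5 they numbered 102, 212 and 81.

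The flg22 libraries of ZAT12 and ZAT11 are given beside their water levels. At 15 min ZAT12 held 353, 355 and 486 TPM in ein2-5, against 408, 527 and 446 TPM in Col-0, and the groups overlapped. The overlap rests on the third ein2-5 library, the shallowest of the 96 with 388691 tags. That library also gives the third ein2-5 value of the other genes at 15 min. The change of ZAT12 against water at 15 min was 3.22 ± 0.35 in ein2-5, against 6.11 ± 0.42 in Col-0. ZAT11 at 30 min held 617, 757 and 467 TPM in ein2-5, against 1181, 989 and 1195 TPM in Col-0, with all ein2-5 libraries lower; the difference of -0.87 ± 0.35 was not called (adjusted p = 0.151). At 45 min it held 145, 152 and 138 TPM in ein2-5, against 369, 363 and 331 TPM in Col-0 (-1.29 ± 0.36, adjusted p = 0.0223).

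ZAT10 at 15 min held 1113, 915 and 1001 TPM in ein2-5, against 1243, 1423 and 1241 TPM in Col-0, and its change against water was 2.72 ± 0.29 in ein2-5, against 4.35 ± 0.31 in Col-0.

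ZAT8 and ZAT6 were called between the genotypes at single times. ZAT8 at 15 min held 35.9, 18.0 and 20.8 TPM in ein2-5, against 105, 127 and 109 TPM in Col-0, and was the member called at that time (-2.16 ± 0.44, adjusted p = 0.0005, and 0.0209 without replicate 2 of ein2-5), where 1.13% of features were called lower. ZAT7 held 294, 115 and 166 TPM in ein2-5, against 437, 471 and 394 TPM in Col-0, without a call (-1.18 ± 0.47, adjusted p = 0.152). ZAT6 at 15 min overlapped between the genotypes, with 586, 725 and 480 TPM in ein2-5 and 791, 895 and 718 TPM in Col-0.

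The larger difference of ZAT6 came late. At 120 min it held 56.7, 18.5 and 42.1 TPM in ein2-5, against 114, 139 and 184 TPM in Col-0 (-1.89 ± 0.33, adjusted p = 4.2e-05), where 1.72% of features were called lower. At 180 min it held 38.9, 62.7 and 53.2 TPM in ein2-5, against 186, 225 and 177 TPM in Col-0 (-1.93 ± 0.33, adjusted p = 2.06e-05; 1.73% of features). The ein2-5 levels at both times overlapped the ein2-5 water values of 56.6, 23.9 and 65.5 TPM. At 180 min ZAT6 held 167, 124 and 91.1 TPM in jar1-1 and 185, 210 and 204 TPM in npr1-1.

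ZAT5 at 8 min held 0.909, 0 and 1.38 TPM in ein2-5, against 9.11, 13.5 and 6.83 TPM in Col-0. With 3 tags against 31 the ratio was 0.086 (95% counting interval 0.0168 to 0.276), and it was the member called at that time (adjusted p = 0.0055), where 1.06% of features were called lower. The call was lost without any of these libraries except replicate 3 of Col-0 (adjusted p between 0.0118 and 0.055). No member was called between ein2-5 and Col-0 at 30, 45 or 60 min.

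Against its own water libraries, 2 members were called higher in ein2-5 after 8 min (0.0535% of features), 7 after 15 min (3.37%), 8 after 30 min (7.52%), 4 after 45 min (10.1%), 3 after 60 min (11.1%), 1 after 120 min (8.17%) and none after 180 min (6.29%). None was called lower at 15 min (1.4%), 30 min (3.57%) or 45 min (8.56%). The 2 at 8 min were ZAT10 and ZAT12, and neither was called without replicate 1 or without replicate 2 of ein2-5. With the lane as a block 3 members passed after 8 min, 9 after 30 min, 5 after 45 min and 5 after 60 min. The shares of all features in that fit are not given, so these numbers have nothing to be set against. In the interaction the same block raised the calls over all features from 226 to 592. Without replicate 1, 2 or 3 of ein2-5 the calls in either direction numbered 2, 1 and 3 after 45 min, 4, 1 and 3 after 60 min and 1, 0 and 1 after 120 min, where 2 were called with all replicates. With only the compared groups in the fit they numbered 6 after 15 min, 4 after 30 min and 0 at every other time. ZAT7 was the member called lower, at 120 min (3.20, 0 and 1.12 TPM, against 18.2, 2.1 and 11.7 TPM in ein2-5 water; 13.1% of features lower) and at 180 min (2.38, 0 and 1.21 TPM; 11.1%). Both calls were lost without any 1 replicate of ein2-5 (adjusted p between 0.0112 and 0.0701).

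The profiles were compared over the 32 group means of log2(TPM + 1), as a description. Among the 45 pairs of members, ZAT7 and ZAT8 were most alike (Pearson r = 0.923), the pair that can share tags. ZAT6 and ZAT10 followed (0.899), then ZAT11 and AZF2 (0.879). ZAT5 and ZAT18 ran most opposite (-0.81). All these values come from the same libraries and the same 8 conditions in each genotype.

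Of the 8655 sense genes that averaged 10 TPM or more, the nearest to ZAT10 and to ZAT6 was ERF5, an ethylene response factor gene (r = 0.932 and 0.849). NUDT4 was nearest to ZAT12 (0.937) and RDUF1, a gene for a RING ubiquitin ligase, stood among the 3 nearest of both ZAT12 (0.935) and ZAT10 (0.896). ZAT7 and ZAT8 shared AT2G30020 as the nearest gene (0.956 and 0.918), ZAT11 was nearest to AT4G14450 (0.973) and AZF2 to TET8, a tetraspanin gene (0.948). AZF1 was nearest to ACS7 (0.837), which codes for an enzyme of ethylene synthesis, and had PUB22, a gene for a ubiquitin ligase of the flagellin response, also among its 3 nearest (0.796). ZAT18 was nearest to MSRB9 (0.908), and ZAT5 to APA1 (0.878) and CAX7 (0.86).

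**Figure D5:**
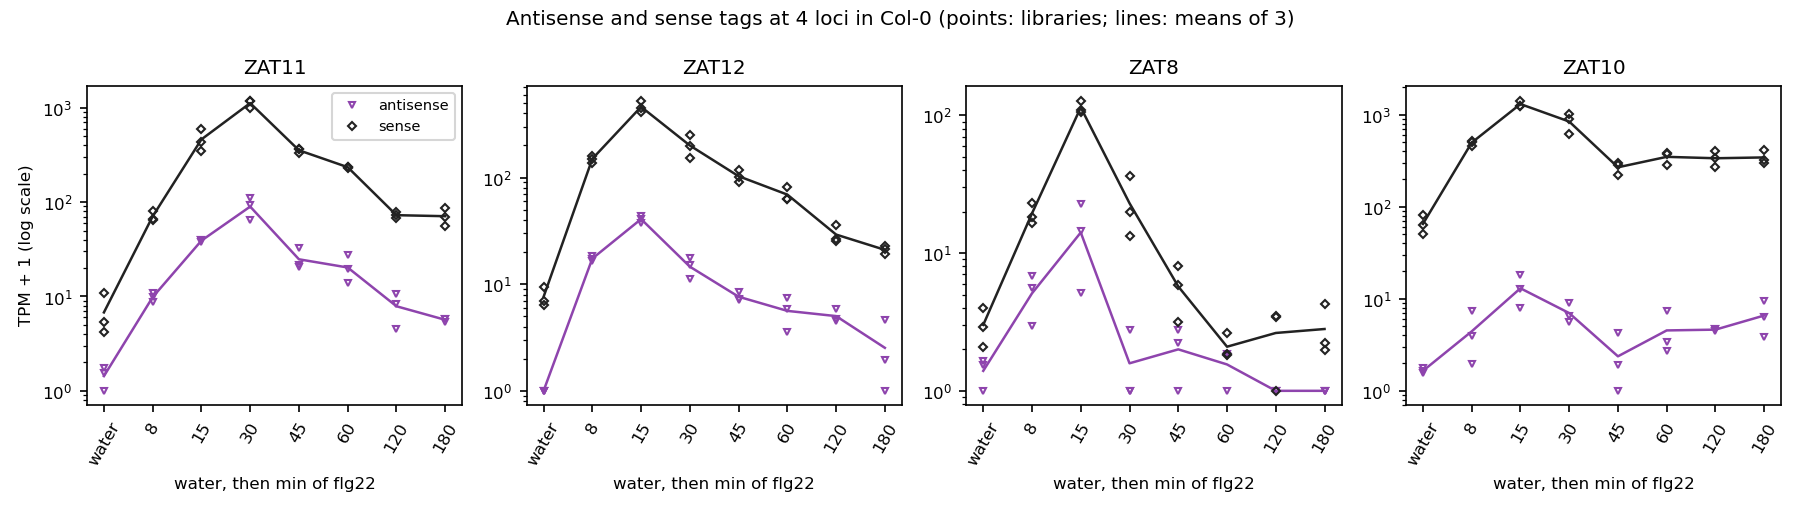
Antisense and sense tags (TPM + 1, log scale) of ZAT11, ZAT12, ZAT8 and ZAT10 in Col-0 against water and the times of flg22; points are libraries and lines the means of 3. The antisense line of ZAT11 is highest at 30 min and that of ZAT12 at 15 min, the times at which their sense lines are highest.

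Because the tags keep their strand, antisense tags could be set beside the sense tags. Antisense tags made up 3.3% of all tags, and of the tags at the member loci 9.63% at ZAT5 (31 tags), 9.45% at ZAT8, 6.94% at ZAT12, 6.39% at ZAT11 (2527.5 tags) and 6.03% at AZF2, and between 0.478% and 2.03% at the other five. Of the 10 antisense loci, 7 passed the filter on low counts; those of ZAT5, ZAT18 and AZF1 did not.

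Antisense ZAT11 held 0.543, 0 and 0.753 TPM in Col-0 water libraries, 38.7, 36.7 and 38.8 TPM at 15 min and 110, 64.2 and 92.5 TPM at 30 min. Antisense ZAT12 held 36.5, 40.2 and 42.6 TPM at 15 min in Col-0 and no tag in the 3 Col-0 water libraries. Both were called higher at 8 min in Col-0 (2 of the 7 tested, with 1.2% of all features), and at 15 min all 7 tested antisense loci were (8.71% of all features). Antisense loci with few tags in water passed the filter on low counts through groups where they were high. These counts are therefore not independent of that filter. In water, antisense ZAT12 was also higher in ein2-5 than in Col-0 (5.30 ± 1.44 fitted, adjusted p = 0.00726), and the other 6 were not called. As the Col-0 water group held no antisense ZAT12 tag, the fitted value depends on the prior count and is not a measured fold.

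Genes of related function were counted from lists. Of 13 further genes listed by locus as relatives, with no search of their proteins, 2 passed the filter on low counts, AZF3 and AT2G28710. AZF3 fell first and rose later in Col-0, with 120, 37.3 and 70.8 TPM in water, 20.2, 15.5 and 20.2 TPM at 30 min (-2.03 ± 0.48, adjusted p = 0.000639) and 220, 324 and 185 TPM at 180 min (1.66 ± 0.44, adjusted p = 0.00141). AT2G28710 rose late, with 21.2, 24.9 and 21.7 TPM at 180 min, against 3.26, 0.644 and 3.77 TPM in water (3.11 ± 0.73, adjusted p = 0.000318).

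Of the 6 corepressor genes (TPL, TPR1, TPR2, TPR3, TPR4 and SAP18), all tested, TPL was the lone call in Col-0, at 15 min, where 8.71% of all features were called higher. It held 37.6, 39.5 and 12.7 TPM at 15 min, against 16.3, 9.02 and 14.3 TPM in water (1.18 ± 0.33, adjusted p = 0.00481). Of the 3 libraries at 15 min, 1 stayed at the water level. The kinase gene MPK3 rose as well, with 99.9, 65.0 and 82.8 TPM in water, 772, 882 and 713 TPM at 30 min (3.25 ± 0.30, adjusted p = 2.52e-15) and 59.7, 56.3 and 53.1 TPM at 180 min. MPK6 was called at 15 min (1.00 ± 0.23), not at 30 min (0.50 ± 0.23, adjusted p = 0.104), and again at all times between 45 and 180 min (1.71 ± 0.23 at 180 min).

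Of 12 genes that make or remove reactive oxygen, 11 were tested, and 4 were called higher at 15 min in Col-0 (8.71% of all features), 2 at 30 min (11.1%) and 4 at 180 min (16.1%), with 2 lower at 180 min (16.5%). The 2 calls at 30 min and the 2 lower calls at 180 min are shares near those of all features. RBOHD, the oxidase of the flagellin burst, held 282, 409 and 365 TPM at 30 min, against 12.5, 16.1 and 26.4 TPM in water (4.28 ± 0.30, adjusted p = 3.62e-20), and CAT1, a catalase gene, was the other call at that time (1.01 ± 0.21). In water RBOHD was the lone gene of this list that was called in ein2-5, with 47.5, 30.9 and 64.4 TPM in ein2-5, against 12.5, 16.1 and 26.4 TPM in Col-0 (1.39 ± 0.29, adjusted p = 0.000245). Over all features 865 of 16816 were called higher in that comparison. Of the cold genes CBF1, CBF2 and CBF3, CBF2 alone passed the filter, and it was not called at any time in Col-0.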

How the data were processed

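Strand-specific 3′ tag libraries (EXPRSS Tag-seq) of Arabidopsis leaf discs were analysed from the tables the authors deposited: expected counts of tags per locus, sense and antisense (R_ prefix), made with Bowtie 0.12.8 and R 2.15.3 on TAIR10, per the labels. The authors shared a tag that fitted several genes equally among them, so values need not be whole; they were rounded to whole numbers here, which changed totals by between -0.0506% and -0.0122%. The depth was 388691 to 2415393 tags a library. Loci that passed edgeR's filterByExpr (minimum count 10, minimum total 15; 16816 features, 14569 sense and 2247 antisense) were fitted with edgeR 4.0.16 (R 4.3.3) over all 96 libraries with 1 mean per group, TMM factors (0.682 to 1.36) and the quasi-likelihood test; Benjamini-Hochberg adjustment ran over all features, and calls had adjusted p under 0.01. The study's own test was not used here. The fit was tested on simulated data.

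Groups came from the labels: 4 genotypes, water or 7 times of flg22, 3 replicates; reads that the labels give to no group were not used. The study calls the replicates biological, and nothing in the labels says whether they were separate plants, so p-values measure the spread between these libraries. Comparisons were flg22 against water, each mutant against Col-0 in water, at each time and over the 7 times, their interaction, and steps in time. The 10 genes, the lists and the tests were chosen with earlier results of these data known. The genes named beside each member are the 3 with the highest Pearson correlation over group means (log2 of TPM + 1), among sense genes of at least 10 TPM. The list of lanes puts each genotype and replicate number on 1 of 12 lanes, and libraries of a lane deviated together (mean r = 0.534 for ein2-5, 0.289 for jar1-1, 0.348 for npr1-1 and 0.319 for Col-0), so within a genotype the numbers pair libraries; across genotypes they do not. Alternatives were DESeq2 1.42.0, its size factors, total tags as scaling, no filter on low counts, organelle loci left out, each replicate left out, the lane or number as a block, lane as a random block in limma 3.58.1, and fits of the compared groups only. Intervals of tag ratios are exact 95% intervals and cover counting error only; a group without tags was set to a floor of 3 tags. Upstream windows of 250 bases came from the TAIR10.1 genome.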

Additional observations from a re-analysis of the deposited data

Results flagged for a closer look

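The change with flg22 over the 7 times differed between ein2-5 and Col-0 for 4 of the 10 genes by the interaction test (edgeR quasi-likelihood, Benjamini-Hochberg over all features). The adjusted p was 6.97e-05 for ZAT11, 0.000776 for ZAT12, 0.00134 for ZAT6 and 0.00488 for ZAT10. Over all features 226 of 16816 were called in this test. With a replicate left out, between 0 and 4 of the 10 genes were called. For ZAT10, ZAT11 and ZAT12 the ein2-5 water libraries were higher than those of Col-0, and for ZAT6 the ein2-5 libraries at 120 and 180 min were lower.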

How the results depend on the processing

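Over all tests of the 10 genes, the alternatives other than leaving out a replicate gave 5846 values, in which 70 calls were lost and 90 gained, 34 of them without the filter on low counts and 25 with the lane as a block. Leaving out a replicate gave 3480 values, with 241 calls lost and 12 gained. The direction, where a test has one, was followed for 318 values, those that were called and those of ein2-5 against Col-0 in water, over the 7 times and in the interaction. No value that was called with the setting used or with the alternative reversed. Sign changes of values called in neither were not counted. Scaling by total tags moved the median of all features by between -0.437 and 0.211 (log2).

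With only the compared groups in the fit, the ein2-5 calls against its own water fell to 0 at 8, 45, 60, 120 and 180 min and 4 at 30 min, and those against Col-0 in water to 0. Over all features that last fit called 122 higher and 75 lower. Without the filter on low counts, calls numbered 2 for ein2-5 at 180 min, 7 for the ein2-5 interaction, 8 for ein2-5 against Col-0 summed over the 7 times, and 1 for jar1-1 against Col-0 over the 7 times and 1 summed over them. In that fit 567 of 49678 features were called in the ein2-5 interaction. The shares of all features for the other counts are not given. Scaling by total tags left 2 interaction calls, and leaving out organelle loci left 3 calls for jar1-1 at 180 against 30 min. With the replicate block (lane within genotype), the ein2-5 calls numbered 5 at 60 min and 6 in the interaction, where 592 of 16816 features were called. The share of all features at 60 min is not given. Other changes by the block stand beside their results, or add single steps in npr1-1, jar1-1 and ein2-5. With the number as a block across genotypes ZAT7 (adjusted p = 0.0006) was added for ein2-5 against Col-0 over the 7 times and ZAT8 at 8 min (-1.95, adjusted p = 0.00986). By the lanes the number does not pair libraries across genotypes. Without ein2-5, 16 of the 30 nearest genes were shared with those named.

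With a replicate left out, calls against water ranged from 5 to 6 in Col-0, 4 to 6 in npr1-1, 4 to 5 in jar1-1 and 0 to 3 in ein2-5 at 8 min. In ein2-5 they ranged from 1 to 3 at 45 min, 1 to 4 at 60 min, 0 to 1 at 120 min and 0 to 1 at 180 min. They ranged from 2 to 6 for ein2-5 against Col-0 in water, 2 to 5 over the 7 times, 2 to 4 summed over them and 0 to 4 in the interaction. For 180 against 30 min in jar1-1 they were 3 each time. For ein2-5 against Col-0 in water, over the 7 times and in the interaction, calls over all features moved as well, as given beside those results. Calls in the steps ranged from 6 to 11 in Col-0 (19 with all replicates), 6 to 9 in npr1-1 (16), 7 to 11 in jar1-1 (18) and 6 to 12 in ein2-5 (15). The cause was not tested. ZAT5 and ZAT18, with the fewest tags, are the genes for which depth limits the size of a change.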
